A study of Homo sapiens with 6 samples.

Results

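The genes described here are 10 targets of the androgen receptor other than the kallikreins, in the human prostate cancer line C4-2B carrying either pcDNA 3.1+LINC00888 or the empty pcDNA 3.1 vector. They were chosen by name, as well-known androgen-induced genes, from the 11844 genes of the deposited gene table. Earlier results of these data were known when the 10 genes and the gene lists below were chosen. The 10 are ELL2, FKBP5, UAP1, TMPRSS2, ADAMTS1, PLPP1, ABCC4, NDRG1, PMEPA1 and CAMKK2. All 10 were listed, with 36 of the 29964 transcripts of the transcript table, which were assigned by the gene symbol before the last hyphen of the transcript name.

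The androgen receptor is a ligand-activated transcription factor that is held by heat shock protein 90 and its co-chaperones until it binds a steroid. It then enters the nucleus and binds response elements, most of them in enhancers far from the start of the gene, with help from pioneer factors such as FOXA1. In luminal prostate cells it drives secretory proteins, proteases, sugar and lipid enzymes and transporters, and several of its targets act back on receptor signalling.

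C4-2B is an androgen-independent line derived from LNCaP cells. The 3 LINC00888 libraries and the 3 empty vector libraries came from stable sublines grown in RPMI1640 with 10% fetal bovine serum, with no added androgen named in the labels. By quantitative PCR of the sequenced RNA, the labels give a LINC00888 level 15.27 ± 2.4 (SD) times that of the control. LINC00888 is a long non-coding RNA whose own sequencing values were not analysed here. Nothing in the labels says whether a group's 3 libraries were separate cultures or clones. The p-values thus measure only the spread between libraries, which may be technical, and a difference between sublines cannot be told apart from one between vectors.

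Levels are FPKM, fragments scaled to the length of the gene model and to all mapped fragments. A gene was called higher or lower when the adjusted p of its limma test on log2(FPKM + 0.5), with Benjamini-Hochberg adjustment over 11726 genes, was under 0.05. The FPKM of all genes summed to between 211148 and 217637 per LINC00888 library and between 213271 and 217336 per empty vector library, and the sequencing depth is unknown. All 9 luminal prostate markers searched were listed. Of the basal markers, KRT5, TP63 and KRT15 were not listed. The genes that were listed all averaged 0.5 FPKM or more in 1 group or both. CHGA, SYP, NCAM1 and INSM1 of the neuroendocrine markers, PTPRC, CD3E, CD14 and LYZ of the leukocyte markers, COL1A2, COL3A1, DCN and LUM of the fibroblast markers and PECAM1, CDH5 and KDR of the endothelial markers were also not listed. Other markers of these lists were listed and tested: 1 neuroendocrine, 2 fibroblast, 1 leukocyte and 1 endothelial. Of these, 1 fibroblast marker was called higher in LINC00888 cells, and the others were not called. The neuroendocrine marker was at 3.16 to 5.40 FPKM in the LINC00888 libraries and 2.65 to 5.03 in the empty vector libraries. The summed FPKM of the listed basal markers ITGB4, CDH3 and KRT14 was 5.58 to 5.92 in the LINC00888 libraries and 4.70 to 5.03 in the empty vector libraries. Its part in the results below was not tested.

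Of the 10 targets, 1 was higher in LINC00888 cells (TMPRSS2), 3 were lower (ELL2, UAP1 and PLPP1) and 6 were not called. Among all genes tested, 8.02% were called higher and 5.46% lower, 13.5% in both directions together. That was 941 genes higher and 640 lower, and with median ratio scaling of the libraries 751 genes were higher and 850 lower. Calls for lower levels were more frequent among abundant genes. Of the 2925 genes with a mean at or above that of the least abundant target, CAMKK2, 12.0% were lower and 5.44% higher. The median log2 fold change of the 10 targets was -0.04, against 0.03 over all genes tested. In 7 of the 10 targets the LINC00888 libraries did not overlap with the empty vector libraries, against 38.3% of all genes, a share not matched for abundance. The shares of all genes called higher and lower are also the background for the counts from the gene lists below.

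**Figure D1:**
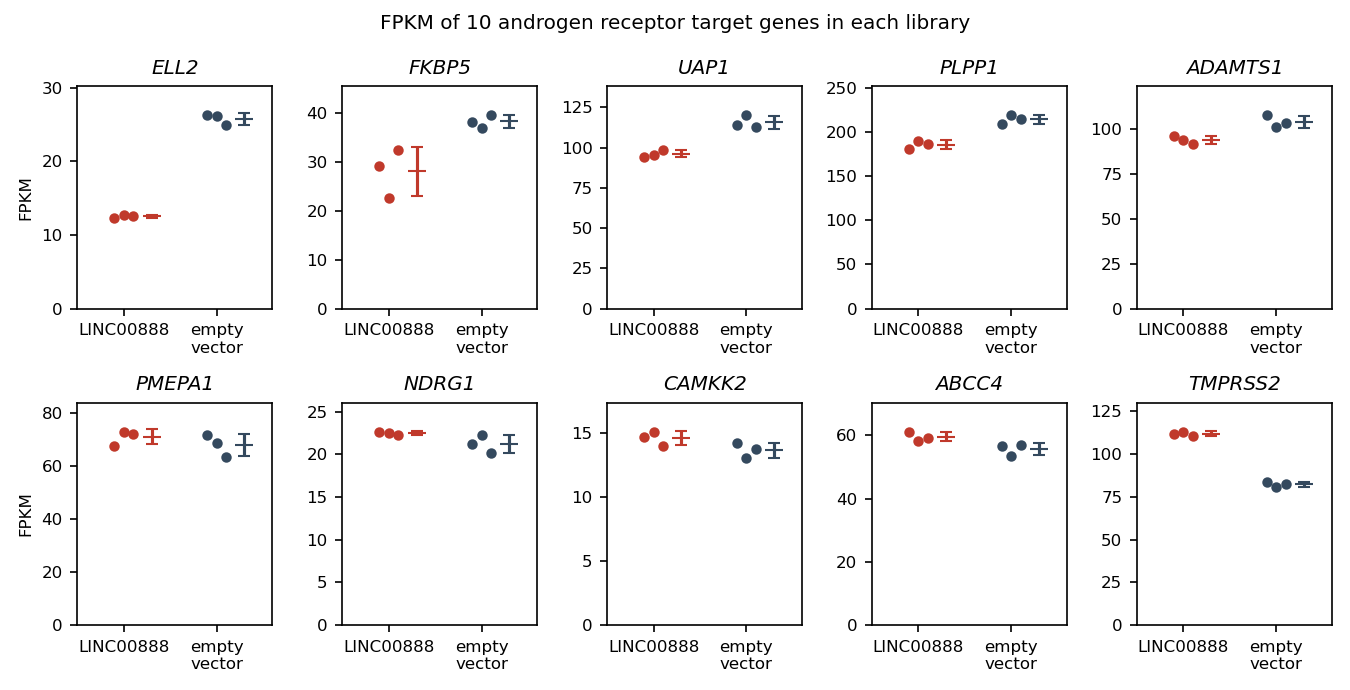
FPKM of each target gene (vertical axis, from 0) in the 3 LINC00888 libraries (red) and the 3 empty vector libraries (dark blue). Points are libraries and the bar beside them is the mean ± SD, with genes ordered from the lowest to the highest log2 fold change. ELL2 stood near 12.5 FPKM in LINC00888 cells and 25.7 in empty vector cells, and TMPRSS2 near 112 FPKM in LINC00888 cells and 82.3 in empty vector cells.

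The listed transcripts of UAP1, FKBP5 and PMEPA1 start at different sites. The 250 bases before the RefSeq start of some of them are shown first (GRCh38.p14, each read 5′ to 3′ on the strand of the gene). For the 10 targets, 5 genes had entries among the 35116 RefSeq promoters, 11 entries in all. Each entry was searched on both strands for the 6-base androgen receptor motif AGAACA, or TGTTCT on the other strand. Capitals mark a motif. The first sequence precedes the start of UAP1-201 and UAP1-204, at chr1:162561281-162561530 on the plus strand. The next precede the upstream start of FKBP5, used by FKBP5-202, at chr6:35728584-35728833, and its downstream start, used by FKBP5-201, FKBP5-203 and FKBP5-204, at chr6:35688916-35689165, both on the minus strand. The last precedes the start of PMEPA1-203 and PMEPA1-205, at chr20:57710578-57710827 on the minus strand.
UAP1, start of 201 and 204: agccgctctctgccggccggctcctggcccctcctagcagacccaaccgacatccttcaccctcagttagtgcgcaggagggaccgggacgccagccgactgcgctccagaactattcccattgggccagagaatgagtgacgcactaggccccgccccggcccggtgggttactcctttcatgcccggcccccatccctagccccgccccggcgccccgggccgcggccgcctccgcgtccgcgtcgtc
FKBP5, upstream start: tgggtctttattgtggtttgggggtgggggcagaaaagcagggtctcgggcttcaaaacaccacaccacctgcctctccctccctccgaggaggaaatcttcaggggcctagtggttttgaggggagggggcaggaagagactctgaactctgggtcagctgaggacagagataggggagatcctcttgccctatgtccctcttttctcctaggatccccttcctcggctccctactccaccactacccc
FKBP5, downstream start: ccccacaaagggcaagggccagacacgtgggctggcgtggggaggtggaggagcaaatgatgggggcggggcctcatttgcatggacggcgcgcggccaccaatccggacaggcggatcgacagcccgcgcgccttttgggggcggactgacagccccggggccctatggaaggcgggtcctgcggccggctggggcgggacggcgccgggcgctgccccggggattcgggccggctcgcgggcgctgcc
PMEPA1, start of 203 and 205: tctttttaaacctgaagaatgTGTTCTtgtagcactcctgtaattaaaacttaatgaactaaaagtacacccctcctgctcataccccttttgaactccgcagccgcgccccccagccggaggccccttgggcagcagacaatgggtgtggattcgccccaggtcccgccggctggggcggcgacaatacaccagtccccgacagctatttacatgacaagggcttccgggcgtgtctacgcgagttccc

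A motif stood before the start in 1 of the 11 entries of the targets, the PMEPA1 window, 229 bases before the start. Before the start of all RefSeq promoters 12.4% held one. Over the whole 300-base entries, which add 50 bases after the start, 3 of the 11 held a motif, against 14.8% of all. The full palindrome, AGAACA and TGTTCT with 3 bases between them, was in none of the 11 and in 1 of the 35116. Such matches are descriptions of the letters in these windows.

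ELL2 (ENSG00000118985.15_2, chromosome 5, 95220802 to 95297775, minus strand) is an elongation factor of RNA polymerase II and part of the super elongation complex. It had 12.3, 12.7 and 12.5 FPKM in the LINC00888 libraries, against 26.3, 26.1 and 24.9 FPKM in the empty vector libraries. Every LINC00888 library lay below every empty vector library, with a wide gap between the groups. The mean was 12.5 ± 0.213 FPKM in LINC00888 cells and 25.7 ± 0.778 FPKM in empty vector cells (SD, n = 3 each), a fall to 0.486 of the empty vector level. The log2 fold change was -1.01 (SE 0.039, limma with Benjamini-Hochberg adjusted p = 0.000211). In bulk RNA a lower level in each cell and fewer cells with the RNA cannot be told apart. Positions of genes are those of the deposited tables, whose genome build is not stated in the sources used here.

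The fall was seen in the main transcript ELL2-201, which had 14.7, 15.2 and 14.9 FPKM in the LINC00888 libraries and 31.0, 31.2 and 29.5 FPKM in the empty vector libraries. It was one of the 102 transcripts called among 26941 (0.379% in both directions, 0.212% lower), with an adjusted p of 0.0054 by limma. Its share of the ELL2 transcripts was 96.2, 95.1 and 94.7% in LINC00888 cells and 91.6, 94.6 and 93.4% in empty vector cells. The minor transcript ELL2-206 was at 0, 0.293 and 0.301 FPKM in the LINC00888 libraries and at 1.04, 0.871 and 0.995 FPKM in the empty vector libraries, with an adjusted p of 0.208. An antisense gene, AC104123.1, overlaps ELL2 in GENCODE 29, and whether strand was used in counting is not given in the sources used here.

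Of the 14 partners of ELL2 in the super elongation complex and its regulators, all were tested, none was called higher and 3 were called lower. These 3 were 21.4% of the list, against 5.46% of all genes tested and 12.0% of those at or above the level of CAMKK2. EAF2, an ELL-associated factor that is itself androgen-induced, averaged 5.80 ± 0.273 FPKM in LINC00888 cells and 8.62 ± 0.821 FPKM in empty vector cells (SD, n = 3 each, adjusted p = 0.0128 by limma, and 0.0504 without LINC00888 library 1). HEXIM1, an inhibitor of the elongation kinase P-TEFb, averaged 13.5 FPKM in LINC00888 cells and 17.5 FPKM in empty vector cells (adjusted p = 0.0139, and 0.0502 without empty vector library 3). CDK9, the kinase of P-TEFb, averaged 18.5 FPKM in LINC00888 cells and 21.2 FPKM in empty vector cells (adjusted p = 0.0353) and lost its call when any single library was left out, with quantile normalization (0.0543) and with eBayes without trend and robust (0.0549). AFF4, the scaffold that binds ELL2, averaged 17.9 ± 2.24 FPKM in LINC00888 cells and 15.7 ± 1.63 FPKM in empty vector cells and was not called (adjusted p = 0.319).

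FKBP5 (ENSG00000096060.14_2, chromosome 6, 35541362 to 35696360, minus strand) encodes a co-chaperone of heat shock protein 90 that acts on steroid receptors. It had 29.03, 22.6 and 32.4 FPKM in the LINC00888 libraries, against 38.1, 37.0 and 39.5 FPKM in the empty vector libraries. The groups did not overlap, but the LINC00888 libraries were spread, with library 2 lowest. FKBP5 was not called, with a log2 fold change of -0.46 (95% interval -0.78 to -0.13, adjusted p = 0.073 by limma). Without LINC00888 library 2 the log2 fold change was -0.31.

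The spread lay in FKBP5-201, the main transcript, at 72.4, 45.3 and 90.0 FPKM in the LINC00888 libraries and 99.5, 98.9 and 106.9 FPKM in the empty vector libraries (adjusted p = 0.471). Summed over the 3 transcripts of the downstream start, the LINC00888 libraries had 76.4, 52.6 and 90.7 FPKM and the empty vector libraries 104, 103 and 110.02 FPKM. FKBP5-202, from the upstream start, had 4.23, 9.57 and 0.121 FPKM in the LINC00888 libraries and 1.86, 0.0166 and 0.364 FPKM in the empty vector libraries. Its share of all FKBP5 transcripts was 5.25, 15.4 and 0.133% in LINC00888 cells and 1.75, 0.016 and 0.33% in empty vector cells, so that the groups overlapped, and library 2 of the LINC00888 group stood above the others.

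Of the 11 steroid receptor chaperones tested, none was called higher and 6 were called lower (54.5%), against 5.46% of all genes tested and 12.0% of those at or above the level of CAMKK2. This list, too, was chosen with earlier results of these data known. HSP90AB1, the constitutive heat shock protein 90, averaged 632 ± 8.60 FPKM in LINC00888 cells and 775 ± 10.8 FPKM in empty vector cells (SD, n = 3 each, adjusted p = 0.0045 by limma). With quantile normalization its log2 fold change was -0.0241 (adjusted p = 0.59), so its call depends on the scaling. STIP1, which hands clients from heat shock protein 70 to heat shock protein 90, averaged 55.6 FPKM in LINC00888 cells and 68.4 FPKM in empty vector cells (adjusted p = 0.0057), and the constitutive heat shock protein 70 gene HSPA8 averaged 177 FPKM in LINC00888 cells and 239 FPKM in empty vector cells (adjusted p = 0.013). FKBP4, an immunophilin related to FKBP5 and a positive co-chaperone of the androgen receptor, averaged 77.3 ± 1.06 FPKM in LINC00888 cells and 87.5 ± 1.14 FPKM in empty vector cells (adjusted p = 0.0165). Its call was lost without LINC00888 library 2, LINC00888 library 3 or empty vector library 3, with adjusted p up to 0.0626, and with cyclic loess (0.0644) or quantile normalization (0.0983). Of the 7 genes induced by both glucocorticoid and androgen receptors that were tested, DUSP1, a MAP kinase phosphatase, was higher at 18.2 FPKM in LINC00888 cells and 13.1 FPKM in empty vector cells (adjusted p = 0.00889), and the metallothionein MT2A was lower at 23.3 FPKM in LINC00888 cells and 27.2 FPKM in empty vector cells (adjusted p = 0.0454, lost when any single library was left out, with cyclic loess or quantile normalization and with eBayes without trend and robust).

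UAP1 (ENSG00000117143.13_4, chromosome 1, 162531296 to 162569632, plus strand) encodes the enzyme that makes UDP-N-acetylglucosamine, the donor sugar of the hexosamine pathway. It had 94.1, 95.7 and 98.4 FPKM in the LINC00888 libraries, against 114, 120.2 and 113 FPKM in the empty vector libraries. All LINC00888 libraries were lower, and the groups did not overlap. The mean was 96.1 ± 2.19 FPKM in LINC00888 cells and 116 ± 4.01 FPKM in empty vector cells (SD, n = 3 each), with a log2 fold change of -0.27 (SE 0.038, adjusted p = 0.0116 by limma).

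UAP1 transcripts fell into those from an upstream start, UAP1-201 and UAP1-204, and those from a start 4531 bases downstream, UAP1-202 and UAP1-203. The upstream pair summed to 76.1, 74.6 and 71.3 FPKM in the LINC00888 libraries, against 94.0, 102 and 103 FPKM in the empty vector libraries, without overlap. The downstream pair summed to 68.0, 72.7 and 81.0 FPKM in the LINC00888 libraries and 80.7, 80.9 and 68.8 FPKM in the empty vector libraries, with overlap. The upstream share was 52.8, 50.7 and 46.8% in LINC00888 cells, against 53.8, 55.9 and 59.9% in empty vector cells. The shares did not overlap, and their exact permutation p of 0.1, two-sided, is the smallest that 3 libraries against 3 allow. The sums by start were added after the data were seen. The share of each single UAP1 transcript overlapped between the groups. No single UAP1 transcript was called, with UAP1-204 closest at 65.1 ± 1.57 FPKM in LINC00888 cells and 82.9 ± 3.16 FPKM in empty vector cells (adjusted p = 0.0729 by limma). A gene within an intron of UAP1 on its strand, AL596325.2, is annotated in GENCODE 29, and reads could be shared with it.

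**Figure D2:**
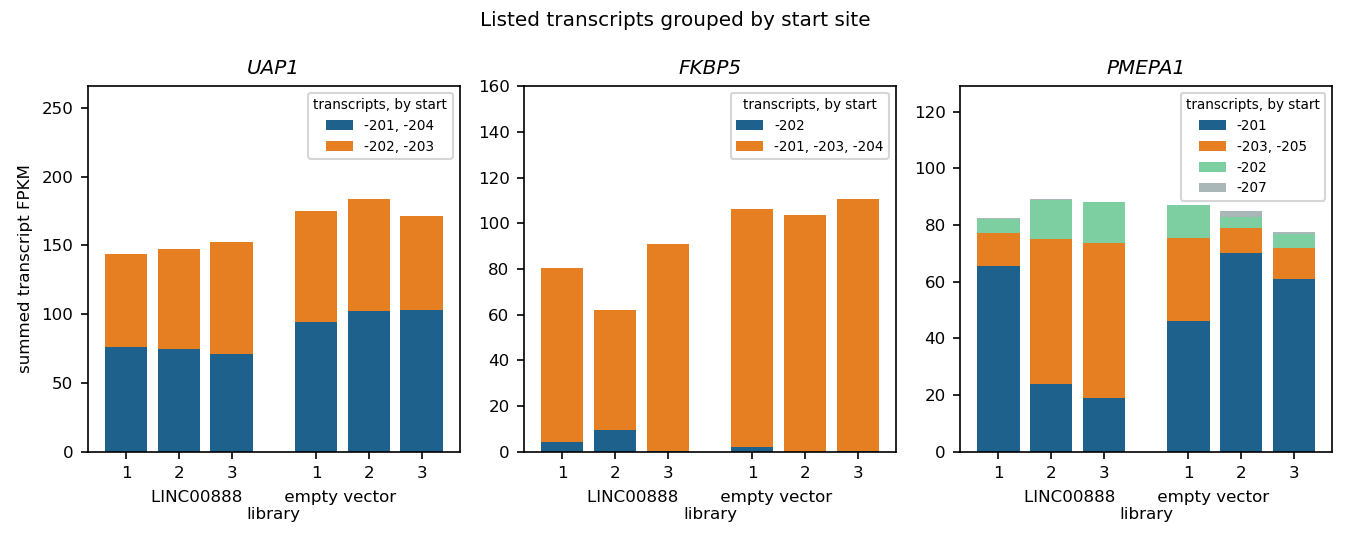
Summed FPKM of the listed transcripts of UAP1, FKBP5 and PMEPA1 (vertical axis, from 0) in each library, stacked by start site, with the 3 LINC00888 libraries left of the 3 empty vector libraries. The blue UAP1 part, from the upstream start, was at 71.3 to 76.1 FPKM in LINC00888 cells and 94.0 to 103 in empty vector cells, while PMEPA1-201 made up the largest part of PMEPA1 in LINC00888 library 1 and in all empty vector libraries, and not in LINC00888 libraries 2 and 3.

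Of the 7 genes of hexosamine synthesis, all were tested, 1 was called higher (14.3%, against 8.02% of all genes tested) and none lower. It was GFPT2, an isoform of the first enzyme of the pathway, at 1.19 ± 0.0315 FPKM in LINC00888 cells and 0.711 ± 0.111 FPKM in empty vector cells (SD, n = 3 each, adjusted p = 0.02 by limma), a call that was lost without each library except empty vector 2, with adjusted p up to 0.0719, and with cyclic loess (0.0532). The abundant isoform GFPT1 averaged 16.2 ± 0.664 FPKM in LINC00888 cells and 16.8 ± 0.737 FPKM in empty vector cells and was not called (adjusted p = 0.568).

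PLPP1 (ENSG00000067113.16_3, chromosome 5, 54720682 to 54830878, minus strand) encodes a membrane phosphatase that removes phosphate from lysophosphatidic and phosphatidic acid. It was the most abundant of the 10 in both groups, with 181, 190.1 and 187 FPKM in the LINC00888 libraries, against 209.7, 219 and 214 FPKM in the empty vector libraries. The 3 LINC00888 values lay below the 3 empty vector values. The mean was 186 ± 4.74 FPKM in LINC00888 cells and 215 ± 4.87 FPKM in empty vector cells (SD, n = 3 each), with a log2 fold change of -0.21 (SE 0.035, adjusted p = 0.0168 by limma). The call was lost without LINC00888 library 1 (0.0529), LINC00888 library 3 (0.0508), empty vector library 2 (0.0502) or empty vector library 3 (0.0631). PLPP1-202 averaged 209 ± 6.33 FPKM in LINC00888 cells and 242 ± 5.25 FPKM in empty vector cells and was not called among transcripts (adjusted p = 0.138), and PLPP1-201 averaged 23.2 FPKM in LINC00888 cells and 25.4 FPKM in empty vector cells. MTREX on the opposite strand, and MIR5687 and the pseudogene RNF138P1 on the same strand, overlap PLPP1 in GENCODE 29. Of the 7 other genes of lipid phosphate phosphatases and related proteins tested, 2 were lower (28.6%, against 5.46% of all genes tested) and none higher. SGPP1, which removes phosphate from sphingosine 1-phosphate, averaged 14.0 ± 0.086 FPKM in LINC00888 cells and 19.2 ± 0.32 FPKM in empty vector cells (adjusted p = 0.00241 by limma). The phosphatase-related gene PLPPR2 averaged 14.8 FPKM in LINC00888 cells and 16.5 FPKM in empty vector cells (adjusted p = 0.0432, lost when any single library was left out and with eBayes without trend and robust).

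TMPRSS2 (ENSG00000184012.11_3, chromosome 21, 42836478 to 42903043, minus strand) encodes a transmembrane serine protease of the luminal epithelium. It was the only one of the 10 called higher, with 112, 113 and 111 FPKM in the LINC00888 libraries, against 83.7, 80.6 and 82.6 FPKM in the empty vector libraries. Every LINC00888 library lay above every empty vector library. The mean was 112 ± 1.31 FPKM in LINC00888 cells and 82.3 ± 1.57 FPKM in empty vector cells (SD, n = 3 each), with a log2 fold change of 0.44 (SE 0.031, adjusted p = 0.00162 by limma).

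The rise was seen in TMPRSS2-202, which had 196, 197 and 193 FPKM in the LINC00888 libraries and 145, 142 and 142 FPKM in the empty vector libraries. It was one of the transcripts called higher, 0.167% of those tested, with an adjusted p of 0.0096 by limma. Without a library its adjusted p was 0.0576 (LINC00888 1), 0.0674 (LINC00888 2), 0.0669 (LINC00888 3), 0.0548 (empty vector 1) or 0.0643 (empty vector 3), so that the transcript's call was lost in each of these, while the gene's call was kept. Its share of TMPRSS2 transcripts was 91.7, 90.2 and 89.8% in LINC00888 cells and 87.7, 90.9 and 88.8% in empty vector cells, with overlap. Of 6 other genes of transmembrane serine proteases and their inhibitors tested, HPN (hepsin) was higher at 32.1 ± 0.438 FPKM in LINC00888 cells and 26.6 ± 0.863 FPKM in empty vector cells (adjusted p = 0.0109). TMPRSS11E was lower at 1.35 FPKM in LINC00888 cells and 2.29 FPKM in empty vector cells (adjusted p = 0.0178), a call lost without LINC00888 library 1 or 3 or empty vector library 1 or 3, with adjusted p up to 0.0652.

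ADAMTS1 (ENSG00000154734.14_4, chromosome 21, 28208066 to 28217728, minus strand) encodes a secreted metalloprotease that cuts matrix proteoglycans. It had 96.3, 94.2 and 91.7 FPKM in the LINC00888 libraries, against 108, 101 and 103 FPKM in the empty vector libraries. The groups did not overlap, with a mean of 94.1 ± 2.28 FPKM in LINC00888 cells and 104 ± 3.41 FPKM in empty vector cells (SD, n = 3 each). ADAMTS1 was not called at the threshold (log2 fold change -0.15, 95% interval -0.24 to -0.06, adjusted p = 0.0516 by limma), and it was called lower with median ratio scaling of the libraries (-0.18, adjusted p = 0.0247). The log2 fold change was smaller with cyclic loess (-0.08, adjusted p = 0.34) and quantile normalization (-0.05, adjusted p = 0.608), so its size depends on the scaling. Of the 3 related proteases and inhibitors tested, ADAMTS13 was higher at 2.40 ± 0.159 FPKM in LINC00888 cells and 1.47 ± 0.0666 FPKM in empty vector cells (adjusted p = 0.00837).

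ABCC4 (ENSG00000125257.13_2, chromosome 13, 95672083 to 95953700, minus strand) encodes an exporter of cyclic nucleotides, prostaglandins and steroid conjugates. It had 61.2, 58.3 and 59.3 FPKM in the LINC00888 libraries, against 56.6, 53.6 and 56.8 FPKM in the empty vector libraries. The groups did not overlap, but the gap between them was narrow, and the gene was not called (log2 fold change 0.10, 95% interval 0.004 to 0.19, adjusted p = 0.147 by limma). ABCC4-201 averaged 78.6 ± 1.53 FPKM in LINC00888 cells and 73.3 ± 2.44 FPKM in empty vector cells (adjusted p = 0.462). Of the 4 other ABCC transporters tested, ABCC1, an exporter of glutathione conjugates, was lower at 18.6 ± 0.0888 FPKM in LINC00888 cells and 26.8 ± 1.51 FPKM in empty vector cells (adjusted p = 0.00394).

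CAMKK2 (ENSG00000110931.18_3, chromosome 12, 121675494 to 121736111, minus strand) encodes a calcium-dependent kinase that activates AMPK. Its levels were 14.7, 15.1 and 14.0 FPKM in the LINC00888 libraries and 14.2, 13.0 and 13.7 FPKM in the empty vector libraries. The groups overlapped (log2 fold change 0.10, 95% interval -0.03 to 0.22, adjusted p = 0.257 by limma). Of 14 calcium and AMPK kinase genes tested, 2 were lower (14.3%) and none higher. Among all genes tested 5.46% were lower, and among those at or above the level of CAMKK2 12.0%. Of the 2 lower genes, PRKAA1, a catalytic AMPK subunit, averaged 20.8 ± 0.609 FPKM in LINC00888 cells and 24.6 ± 0.899 FPKM in empty vector cells (adjusted p = 0.0208, lost without each library except empty vector 2, up to 0.0678). STK11, the other upstream kinase of AMPK, averaged 6.08 FPKM in LINC00888 cells and 5.88 FPKM in empty vector cells (adjusted p = 0.72).

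NDRG1 (ENSG00000104419.14_4, chromosome 8, 134249414 to 134314265, minus strand) encodes a cytoplasmic protein induced by androgen, hypoxia and differentiation. Its levels were 22.7, 22.5 and 22.2 FPKM in the LINC00888 libraries and 21.2, 22.3 and 20.1 FPKM in the empty vector libraries. The groups overlapped (log2 fold change 0.08, 95% interval -0.03 to 0.19, adjusted p = 0.27 by limma). Its 6 listed transcripts accounted for 14.7 to 40.8% of the gene's value, against at least 89.2% in the other 9 targets. NDRG1-201 made up 70.4, 73.4 and 44.9% of these transcripts in LINC00888 cells and 8.67, 1.81 and 32.9% in empty vector cells, while NDRG1-222 was at 24.3 FPKM in empty vector library 1 and NDRG1-202 at 23.1 FPKM in empty vector library 2. With the gene level taken as the sum of these transcripts, the log2 fold change was -0.47 (adjusted p = 0.532). Of the 3 NDRG relatives and kinases tested, SGK3, a kinase related to the one that phosphorylates NDRG1, was lower at 4.61 ± 0.322 FPKM in LINC00888 cells and 6.60 ± 0.0573 FPKM in empty vector cells (adjusted p = 0.00842). Of 8 hypoxia-induced genes tested, PDK1 was higher at 7.17 FPKM in LINC00888 cells and 5.89 FPKM in empty vector cells (adjusted p = 0.0383, lost when any single library was left out and under all 3 other scalings) and ANKRD37 lower at 3.62 FPKM in LINC00888 cells and 4.71 FPKM in empty vector cells (adjusted p = 0.0218, lost without LINC00888 library 1 or 3 or empty vector library 2 or 3, up to 0.0751).

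PMEPA1 (ENSG00000124225.15_3, chromosome 20, 56223448 to 56286592, minus strand) encodes a membrane protein that binds NEDD4 ligases and restrains SMAD signalling. Its levels were 67.6, 72.9 and 72.1 FPKM in the LINC00888 libraries and 71.6, 68.7 and 63.4 FPKM in the empty vector libraries. The groups overlapped (log2 fold change 0.06, 95% interval -0.07 to 0.20, adjusted p = 0.494 by limma). An antisense gene, NKILA, overlaps PMEPA1 in GENCODE 29. The FPKM assigned to the PMEPA1 transcripts varied more. PMEPA1-201 had 65.4, 23.8 and 18.8 FPKM in the LINC00888 libraries and 46.1, 70.2 and 60.9 FPKM in the empty vector libraries. The transcripts of the start printed above with its motif, PMEPA1-203 and PMEPA1-205, summed to 11.8, 51.1 and 54.9 FPKM in the LINC00888 libraries and 29.1, 8.61 and 11.001 FPKM in the empty vector libraries. Libraries 2 and 3 of the LINC00888 group thus stood apart from LINC00888 library 1, which fell among the empty vector libraries. The groups overlapped for PMEPA1-201 and for the sum (exact permutation p = 0.3 and 0.2, two-sided). As 0.1 is the smallest p of 3 libraries against 3, this test cannot decide whether they differed. Of 13 TGF-beta and SMAD genes tested, 2 were higher (15.4%, against 8.02% of all genes tested) and none lower. SMAD3, a signal carrier of TGF-beta, averaged 1.38 ± 0.104 FPKM in LINC00888 cells and 0.891 ± 0.0503 FPKM in empty vector cells (adjusted p = 0.0172, lost without LINC00888 library 1 or 2 or empty vector library 3, up to 0.061). ZFYVE9, which presents SMADs to the receptor, averaged 7.42 FPKM in LINC00888 cells and 6.55 FPKM in empty vector cells (adjusted p = 0.0471, lost when any single library was left out and under all 3 other scalings).

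**Figure D3:**
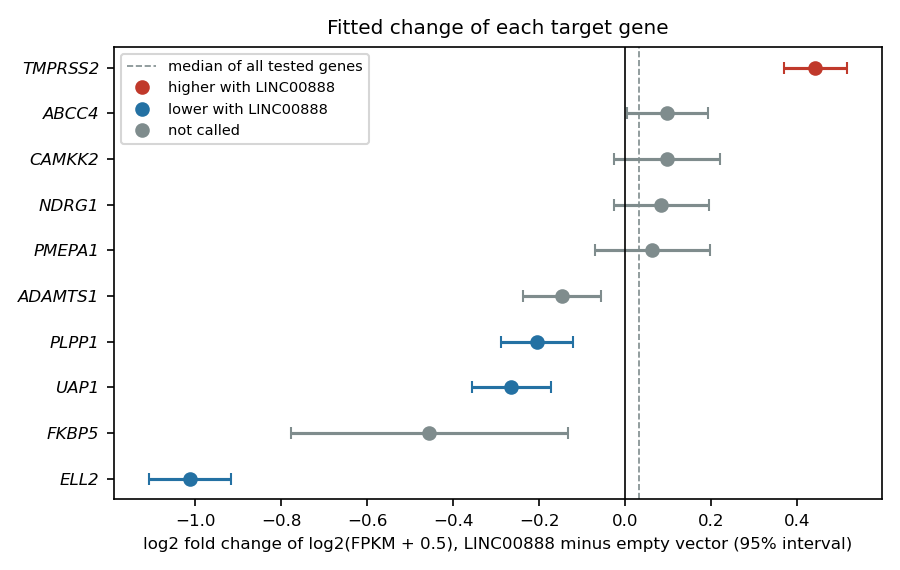
Fitted log2 fold change of each target gene, LINC00888 minus empty vector, on the log2(FPKM + 0.5) scale, with its 95% interval. Red marks the gene called higher, blue those called lower and grey those not called, and the dashed line is the median of all genes tested, 0.03. ELL2 at -1.01 and TMPRSS2 at 0.44 lay farthest apart, and FKBP5 had the widest interval.

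Among the other transcripts of the targets none was called, so that 1 was higher and 1 lower of 34 transcripts tested. In 11 of these 34 the groups did not overlap, against 19.9% of all transcripts. PMEPA1-207 and ADAMTS1-205 did not reach 0.5 FPKM in 3 libraries. Shares of the gene's transcripts did not overlap in 4 of 36, those of ELL2-201, ELL2-206, NDRG1-201 and NDRG1-219, against 11.8% of all transcript shares.

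The order of the targets by FPKM differed between the groups. In LINC00888 cells it ran PLPP1, TMPRSS2, UAP1, ADAMTS1, PMEPA1, ABCC4, FKBP5, NDRG1, CAMKK2 and ELL2. There the libraries of UAP1 overlapped with those of ADAMTS1, and those of FKBP5 with those of NDRG1, while the other neighbours did not overlap. In empty vector cells it ran PLPP1, UAP1, ADAMTS1, TMPRSS2, PMEPA1, ABCC4, FKBP5, ELL2, NDRG1 and CAMKK2, with no overlap between neighbours. TMPRSS2 was thus the second of the 10 in LINC00888 cells and the fourth in empty vector cells. ELL2 was the tenth in LINC00888 cells and the eighth in empty vector cells.

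To ask which targets moved with and against each other, the ratio of FPKM was taken for each of the 45 pairs in each library, which removes any scaling between libraries. In 33 of the 45 pairs the ratios of the LINC00888 libraries did not overlap with those of the empty vector libraries, against 35.2% of all pairs of tested genes, a share not matched for abundance. The 45 pairs reuse the same 10 genes and are not separate observations. The exact permutation p of such a pair, 0.1, is the smallest that 3 against 3 allow, so no pair could pass 0.05. ELL2 and TMPRSS2 were separated from each of the 9 other targets. Their own ratio, ELL2 over TMPRSS2, was 0.110, 0.112 and 0.113 in the LINC00888 libraries, against 0.314, 0.324 and 0.301 in the empty vector libraries, a difference of -1.48 in the mean log2 ratio.

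The other 8 targets formed 2 sets of 4, which follow the sign of the log2 fold changes given above. UAP1, PLPP1, FKBP5 and ADAMTS1 kept overlapping ratios among themselves. UAP1 over PLPP1 was 0.521, 0.503 and 0.526 in the LINC00888 libraries and 0.543, 0.548 and 0.526 in the empty vector libraries. ABCC4, CAMKK2, NDRG1 and PMEPA1 also kept overlapping ratios among themselves, with ABCC4 over CAMKK2 at 4.16, 3.85 and 4.23 in the LINC00888 libraries and 3.99, 4.12 and 4.14 in the empty vector libraries. Every ratio between the 2 sets was without overlap. For instance, UAP1 over ABCC4 was 1.54, 1.64 and 1.66 in the LINC00888 libraries, against 2.01, 2.24 and 1.98 in the empty vector libraries. Overlap of 3 values with 3 does not show that the members of a set changed alike, and FKBP5, whose libraries were spread, differed from ADAMTS1 by -0.31 in the mean log2 ratio.

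**Figure D4:**
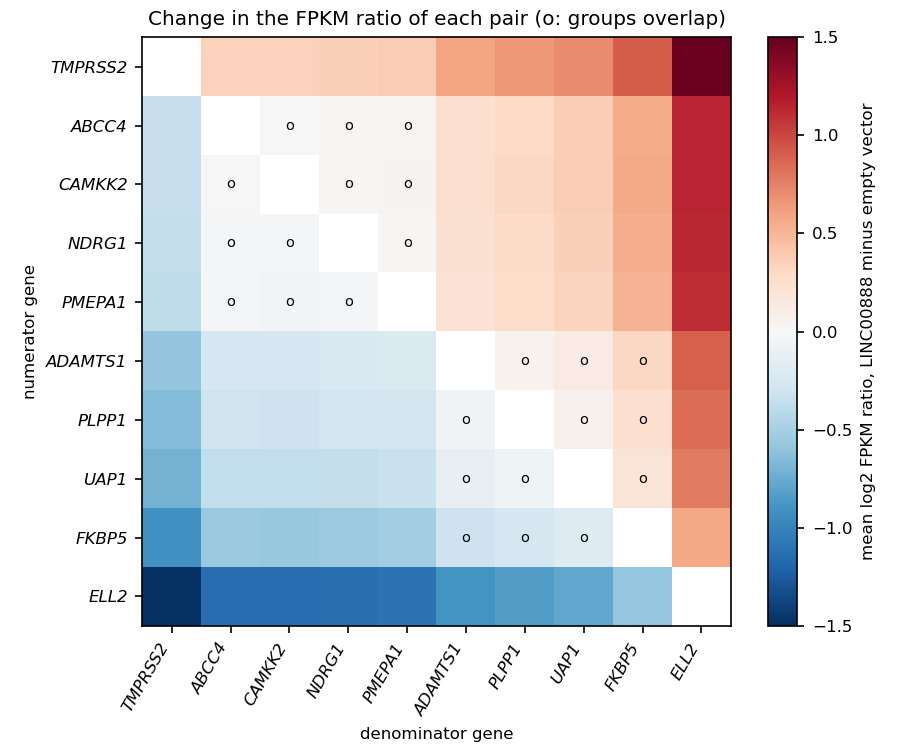
Change in the FPKM ratio of each pair of targets, as the mean log2 ratio of the LINC00888 libraries minus that of the empty vector libraries (colour), with the row gene over the column gene. A small o marks pairs whose ratios overlapped between the groups. The 12 overlapping pairs fell into 2 blocks of 4 genes, and TMPRSS2 and ELL2 had none.

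Of the 13 genes of the receptor and its cofactors tested, 2 were called higher (15.4%) and 1 lower (7.69%). Among all genes tested 8.02% were higher and 5.46% lower. NCOA1, a coactivator of steroid receptors, was lower at an average of 3.41 ± 0.325 FPKM in LINC00888 cells and 5.71 ± 0.315 FPKM in empty vector cells (SD, n = 3 each, adjusted p = 0.00735 by limma). GRHL2, an epithelial transcription factor, was higher at an average of 56.4 FPKM in LINC00888 cells and 47.4 FPKM in empty vector cells (adjusted p = 0.024, lost without LINC00888 library 1 or 2 or empty vector library 2 or 3, up to 0.0798).

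Beyond the 10, a list of 94 further androgen response genes without kallikreins had 88 tested. Of these, 7 were higher and 16 lower, 7.95% and 18.2%, with a median log2 fold change of -0.07. Among all genes tested 8.02% were higher and 5.46% lower, and among the genes as abundant as CAMKK2 or more 12.0% were lower. When any single library was left out, 3 to 5 of the list were higher and 6 to 8 lower, beside 284 to 487 genes higher and 252 to 329 lower in all. The list held calls in both directions, as the 10 targets did. ELL2 lay below every gene of the list and TMPRSS2 below 2 of them.

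The largest rise was that of ALDH1A3, a retinal dehydrogenase, at 24.9, 24.9 and 24.3 FPKM in the LINC00888 libraries, against 14.6, 13.4 and 13.7 FPKM in the empty vector libraries (adjusted p = 0.000872 by limma). SELENOP, a selenium carrier, averaged 33.7 FPKM in LINC00888 cells and 26.2 FPKM in empty vector cells, the kinase STK39 149 FPKM in LINC00888 cells and 127 FPKM in empty vector cells, and ANKH 13.0 FPKM in LINC00888 cells and 11.3 FPKM in empty vector cells. HSD17B14, a steroid dehydrogenase, averaged 4.05 FPKM in LINC00888 cells and 2.91 FPKM in empty vector cells. The call of ANKH was lost when any single library was left out (adjusted p 0.0635 to 0.0794), and that of HSD17B14 without each except empty vector 2 (up to 0.0923) and with cyclic loess (0.0646) or quantile normalization (0.0618).

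Among the called genes of the list, the largest falls were those of EAF2, given above, and TNFAIP8, an apoptosis regulator, at 1.23 FPKM in LINC00888 cells and 1.95 FPKM in empty vector cells. The sulfate transporter SLC26A2 averaged 8.49 FPKM in LINC00888 cells and 11.5 FPKM in empty vector cells, the fatty acid activating enzyme ACSL3 77.5 ± 1.97 FPKM in LINC00888 cells and 96.8 ± 2.41 FPKM in empty vector cells, the linker histone H1F0 72.1 FPKM in LINC00888 cells and 89.7 FPKM in empty vector cells and the luminal keratin KRT8 24.4 FPKM in LINC00888 cells and 30.3 FPKM in empty vector cells. All 3 LINC00888 libraries lay below all 3 empty vector libraries in each. Adjusted p was 0.0283 for TNFAIP8, 0.0158 for SLC26A2, 0.00662 for ACSL3, 0.00727 for H1F0 and 0.00835 for KRT8 by limma. TNFAIP8 lost its call without each library except empty vector 3 (up to 0.0862), and SLC26A2 without LINC00888 library 2 or 3 or empty vector library 1 or 3 (up to 0.0558).

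**Figure D5:**
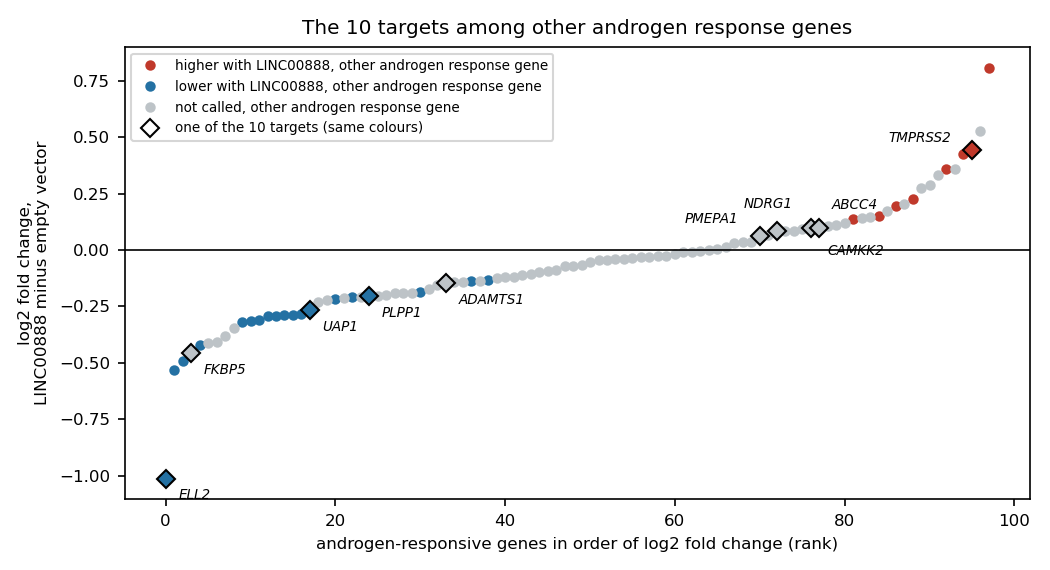
Log2 fold change, LINC00888 minus empty vector, of the 88 other androgen response genes tested (circles) and the 10 targets (diamonds), in rank order. Red marks genes called higher, blue those called lower and grey those not called. The 10 targets ran from the lowest value of all, ELL2 at -1.01, to TMPRSS2 at 0.44 near the upper end.

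Of 8 genes known to be repressed by androgen, 4 were listed and tested. Of these, 2 were higher and none lower, against 8.02% higher and 5.46% lower over all genes tested. The 2 others had lower means in LINC00888 cells and were not called. Of these, UGT2B15 averaged 1.11 FPKM in LINC00888 cells and 1.48 FPKM in empty vector cells (adjusted p = 0.155 by limma). BCHE, butyrylcholinesterase, had 5.16, 5.18 and 6.04 FPKM in the LINC00888 libraries, against 2.81, 2.46 and 2.66 FPKM in the empty vector libraries (adjusted p = 0.00343 by limma). ACKR3, a scavenging chemokine receptor, averaged 3.38 ± 0.166 FPKM in LINC00888 cells and 2.00 ± 0.317 FPKM in empty vector cells (SD, n = 3 each, adjusted p = 0.0145, and 0.052 without LINC00888 library 3).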

How the data were processed

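RNA of stable C4-2B sublines was measured by strand-specific polyA sequencing of 6 libraries, 3 per group, with paired ends read for 150 cycles, per the labels' protocols. FastQC, cutadapt, HISAT2 and StringTie are given with no versions in the submitters' processing notes. Their only build is GRCm38, of the mouse, whereas the identifiers are human and 11717 of 11844 carry a GRCh37 mapping suffix. The deposited values are FPKM per the file headers, computed by the authors for each library. The tables hold no counts, so depth is unknown and no counting intervals were given. In 1 group or both, the mean FPKM of every feature present was 0.5 or more.

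Features with at least 0.5 FPKM in at least 3 of 6 libraries were kept (11726 genes, 26941 transcripts). log2(FPKM + 0.5) was compared with limma 3.58.1 (R 4.3.3; lmFit and eBayes, trend and robust on) in two-sided tests, Benjamini-Hochberg adjusted over all kept features and a threshold of 0.05. The pseudocount makes log2 fold changes of low genes smaller. Transcript shares, sums by start (starts within 100 bases joined) and pair ratios were compared by exact permutation tests over libraries in Python 3.11.15 with SciPy 1.17.1. The tests were tested on simulated data. At 1.5-fold, 66% of changed genes and 8% of changed transcripts were recovered. Alternatives were other pseudocounts, filters and scalings, eBayes without trend and robust, a replicate block and leaving out each library. Scalings were median ratio, quantile and cyclic loess. Gene levels as sums of listed transcripts, the sums by start and the share among abundant genes were added after the data were seen.

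The 10 genes and the gene lists were chosen with earlier results of these data known. Named genes were the 10 targets, of other androgen response genes the 6 largest rises and 6 largest falls among those called without overlap, of each partner list up to 3 called by smallest p, and AFF4, FKBP4, GFPT1, STK11 and SMAD3. A few genes that this rule would name are not reported here. GENCODE 29 gave overlapping genes and transcript lengths.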

Additional observations from a re-analysis of the deposited data

How the results depend on the processing

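Under all alternatives run, TMPRSS2 was called higher and ELL2 lower, and of the 10 targets 1 was called higher and 2 to 4 lower. The transcript TMPRSS2-202 was not called with eBayes without trend and robust (0 member transcripts higher). The library numbers do not pair the samples, since same-numbered libraries deviated together with correlations of 0.038, 0.022 and -0.035. With the replicate block, UAP1 was not called (adjusted p = 0.0517 by limma), 0 member transcripts were called higher and 0 lower, and 3 androgen response genes were higher and 6 lower, beside 229 genes higher and 200 lower in all. With gene levels as the sum of listed transcripts, an alternative chosen after seeing the data, 2 androgen response genes were higher and 7 lower, beside 217 genes higher and 214 lower in all, and the log2 fold change of NDRG1 was -0.47. The calls of SELENOP (adjusted p = 0.686), TNFAIP8 (0.8), ADAMTS13 (0.384), SGK3 (0.076), HPN (0.0702) and BCHE (0.0593) were among those lost with these sums.

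Leaving out 1 library at a time gave 0 to 1 member transcripts higher, 3 to 5 androgen response genes higher and 6 to 8 lower, 5 to 32 transcripts higher and 7 to 30 lower in all (45 higher and 57 lower with all libraries) and 7 to 10 member transcript shares without overlap, while 20.8 to 22.5% of all transcript shares had none.

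Signs turned in the following log2 fold changes, none of which was called. ACPP (0.03) was at -0.0885 with cyclic loess, -0.0658 with quantile normalization and -0.0915 to 0.267 without a library. HOXB13 was at 0.0237 with cyclic loess and 0.0461 with quantile normalization. STK11 was at -0.00353 with cyclic loess and -0.00793 to 0.0942 without a library. Without a library, CAMKK2-211 ran from -0.57 to 0.17, NDRG1-219 from -0.00528 to 0.488 and NDRG1-222 from -1.80 to 1.02. No scaling moved the median of all genes by over 0.1. Changes of single targets still varied in size with the scaling. With cyclic loess the log2 fold change was -0.20 for UAP1, -0.13 for PLPP1, -0.08 for ADAMTS1 and 0.51 for TMPRSS2. With median ratio scaling it was -0.30 for UAP1, -0.24 for PLPP1, -0.18 for ADAMTS1 and 0.41 for TMPRSS2. UAP1, PLPP1 and TMPRSS2 were called under every scaling. The causes were not tested.

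Of the other values of named genes and transcripts, 1148 kept their direction and side of the threshold, 211 lost a call and 2 gained one. Depth is unknown, and at 1.5-fold the simulated test recovered 66% of changed genes and 8% of changed transcripts, so small changes, of transcripts above all, were often not detectable.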

Other observations

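Among the 97 tested genes within 1 Mb of the 10 targets, 11 were higher in LINC00888 cells (11.3%) and 5 lower (5.15%), against 8.02% higher and 5.46% lower over all genes tested, so both shares were near the background. The 7 tested neighbours of UAP1 and the 1 tested neighbour of ADAMTS1 held no call. Of the 7 tested neighbours of ELL2, 1 was higher and none lower. BMP7, a bone morphogenetic protein gene near PMEPA1 on chromosome 20, was named after its values were seen. It had 8.12, 7.34 and 7.91 FPKM in the LINC00888 libraries, against 3.77, 3.48 and 3.36 FPKM in the empty vector libraries, with a log2 fold change of 1.04 (adjusted p = 0.00138 by limma). The groups of BMP7 did not overlap, while those of PMEPA1 did.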
